A study of Mus musculus with 11 samples.

Results

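The serpin A cluster is a run of genes on mouse chromosome 12 that encode secreted and intracellular protease inhibitors. The 10 genes described here, *Serpina1a* to *Serpina1e* and *Serpina3f*, *Serpina3g*, *Serpina3i*, *Serpina3m* and *Serpina3n*, were taken by gene name from a count table of 24849 genes. They have 12 entries in the table, since *Serpina1a* and *Serpina1b* are listed in 2 copies each, and the copies were summed. The RNAseq was made from AML12, a line of mouse hepatocytes, in 3 groups of cells, for which no treatment is given: 4 libraries of AML12 KO cells, 3 of wild-type AML12 (WT) cells and 4 labelled KI. In the KO cells, called a knockdown in the labels, *Txndc5* was cut by CRISPR/Cas9 and recombined with a puromycin resistance gene, and resistant cells were selected. The number of clones is not given in the sources used here. The KI cells carry a construct for TXNDC5 at ROSA26, and all 3 groups share the AML12 background. *Txndc5*, which encodes a disulfide isomerase of the endoplasmic reticulum (ER), had between 287 and 430 counts in the KO, between 3299 and 4046 in the WT and between 5344 and 6723 in the KI libraries. On the scale of library-size-scaled counts (CPM, scaled by TMM), it was lower in the KO than in the WT cells (log2 fold change -3.82, adjusted p = 4.09e-08 by the quasi-likelihood test of edgeR, adjusted after Benjamini and Hochberg, here and below). Between the libraries labelled KI and the WT libraries it differed by 0.24 on the log2 scale and was not called (edgeR adjusted p = 0.136). The KI libraries (158 to 180 CPM) lay above the WT libraries (138 to 147 CPM) without overlap. Of all genes tested, 44.6% did not overlap between these groups. The overexpression named in the labels was thus not seen as a called rise of this gene, and directions for the KI libraries are given under that label only.

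Serpins inhibit proteases by a trap: the protease cuts an exposed reactive centre loop, which then inserts into the body of the inhibitor and carries the protease with it. The *Serpina1* genes encode alpha-1-antitrypsin, a plasma protein made mainly in hepatocytes that inhibits neutrophil elastase, and mice have several copies where humans have a single gene. The *Serpina3* genes are a mouse expansion of the alpha-1-antichymotrypsin gene. *Serpina3n* encodes an acute-phase protein that can inhibit granzyme B, and *Serpina3g* encodes Spi2A, which acts inside cells, where it inhibits cathepsins B and L.

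In the GRCm38 genome with GENCODE annotation, the cluster ran from 103614786 to 104414329 of chromosome 12, a span of 799.5 kb with 28 genes named Serpina, of which 23 have an entry in the table. The build behind the counts is not given in the sources used here, so these positions describe the reference and not the deposited values. The 5 *Serpina1* genes lie on the minus strand at midpoints between 153.8 and 338.2 kb from the start of the cluster. *Serpina3f*, *Serpina3g* and *Serpina3i* follow on the plus strand at 603.1, 624.3 and 651.5 kb, and *Serpina3m* and *Serpina3n* at 751.6 and 795.7 kb.

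The reactive centre loop is the stretch that a protease meets and cuts, and its sequence bears on which proteases a serpin can hold. It is shown for the *Serpina1* genes as 75 coding bases from the codon of the hinge glycine, taken from GENCODE transcripts, with capitals at the bases that are not the same in all 5 genes.
Serpina1a: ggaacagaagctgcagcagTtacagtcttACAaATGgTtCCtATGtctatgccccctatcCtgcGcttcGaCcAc
Serpina1b: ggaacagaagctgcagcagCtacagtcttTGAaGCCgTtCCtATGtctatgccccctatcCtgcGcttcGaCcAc
Serpina1c: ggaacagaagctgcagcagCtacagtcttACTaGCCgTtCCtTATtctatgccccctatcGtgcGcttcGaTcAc
Serpina1d: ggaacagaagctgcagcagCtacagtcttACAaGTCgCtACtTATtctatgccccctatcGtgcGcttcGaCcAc
Serpina1e: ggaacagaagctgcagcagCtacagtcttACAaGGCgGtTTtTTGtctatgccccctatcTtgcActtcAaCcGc
The codon at which the protease cuts (P1), 14 codons after the hinge glycine, was ATG for methionine in *Serpina1a* and *Serpina1b*, TAT for tyrosine in *Serpina1c* and *Serpina1d* and TTG for leucine in *Serpina1e*. Apart from the loop these genes are close copies. Any pair of them shared between 96.3% and 98.5% of 1242 aligned coding bases, and between 14.8% (*Serpina1e*) and 58.5% (*Serpina1c*) of all 100-base windows of a transcript occurred unchanged in another gene, a pseudogene included. The division of reads among the *Serpina1* copies is therefore uncertain, and their sum is given beside the single genes.

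The same stretch of the *Serpina3* members, with capitals where the 5 genes differ, varies over most of its length.
Serpina3f: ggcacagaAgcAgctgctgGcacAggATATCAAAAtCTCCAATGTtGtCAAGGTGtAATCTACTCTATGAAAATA
Serpina3g: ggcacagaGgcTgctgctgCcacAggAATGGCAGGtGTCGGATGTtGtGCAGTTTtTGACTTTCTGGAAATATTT
Serpina3i: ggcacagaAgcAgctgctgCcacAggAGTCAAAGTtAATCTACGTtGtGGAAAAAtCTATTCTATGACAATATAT
Serpina3m: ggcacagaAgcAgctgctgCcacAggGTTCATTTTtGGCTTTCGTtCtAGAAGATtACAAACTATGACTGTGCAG
Serpina3n: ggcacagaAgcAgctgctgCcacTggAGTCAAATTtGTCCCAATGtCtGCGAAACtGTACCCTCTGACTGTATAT
Within the 75 bases, pairs of *Serpina3* genes differed at between 19 (*Serpina3i* and *Serpina3n*) and 38 (*Serpina3f* and *Serpina3m*) positions, against 5 to 12 between *Serpina1* genes. Over the aligned coding bases they shared between 82.0% and 91.3%, and between 0.2% (*Serpina3n*) and 6.1% (*Serpina3m*, with *Serpina3k*) of their 100-base windows occurred in another gene. By this measure less of the *Serpina3* sequence is open to misplaced reads, but a newly assembled serpin entry, described below, is not covered by it. Only part of the reading frame was found in the GENCODE transcript of *Serpina3g* used here, so that 651 to 747 bases were aligned for it with the other *Serpina3* genes.

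In the WT cells the *Serpina3* members were the abundant ones, and *Serpina3g* led them. It had 6313, 6152 and 5328 counts in WT 5-6, WT 7 and WT 8, a level of 239 ± 47.0 CPM (SD, n = 3), and made up 67.4% of the summed level of the *Serpina3* members. The newly assembled entry is not part of that sum. *Serpina3i* came next with 50.2 ± 9.85 CPM (SD, n = 3), followed by *Serpina3f* with 30.6 ± 5.92 and *Serpina3n* with 28.2 ± 6.51. Of the antitrypsin genes, *Serpina1a* had 8.04 ± 1.69 CPM and *Serpina1b* 4.52 ± 1.14 (SD, n = 3). *Serpina1c* and *Serpina1d* stayed under 2 CPM in each WT library, and *Serpina1e* had 0 counts in all 3, which allows up to 3 counts or between 0.106 and 0.134 CPM, for counting error only.

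Per kilobase of annotated exon, which allows levels of different genes to be set side by side, the order in the WT cells was *Serpina3g* (114 CPM per kb), *Serpina3i* (22.6), *Serpina3n* (13.6), *Serpina3f* (13.4), *Serpina1a* (4.39), *Serpina3m* (3.93), *Serpina1b* (1.87), *Serpina1c* (0.505) and *Serpina1d* (0.175). The WT libraries overlapped between the neighbours *Serpina3n* and *Serpina3f*, *Serpina1a* and *Serpina3m*, *Serpina3m* and *Serpina1b*, and *Serpina1c* and *Serpina1d*. In the libraries labelled KI the order changed: *Serpina3g* still led with 23.7 CPM per kb, but *Serpina1a* followed with 6.28, beside *Serpina3i* with 5.65, whose libraries overlapped with those of *Serpina1a*. *Serpina3n*, with 0.896 CPM per kb, lay beside *Serpina1c* with 0.989 in these libraries. In the KO cells no member exceeded 0.798 CPM per kb in any library, and *Serpina3g* (0.606), *Serpina1b* (0.382) and *Serpina1a* (0.325) had the highest means, with overlapping libraries.

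**Figure D1:**
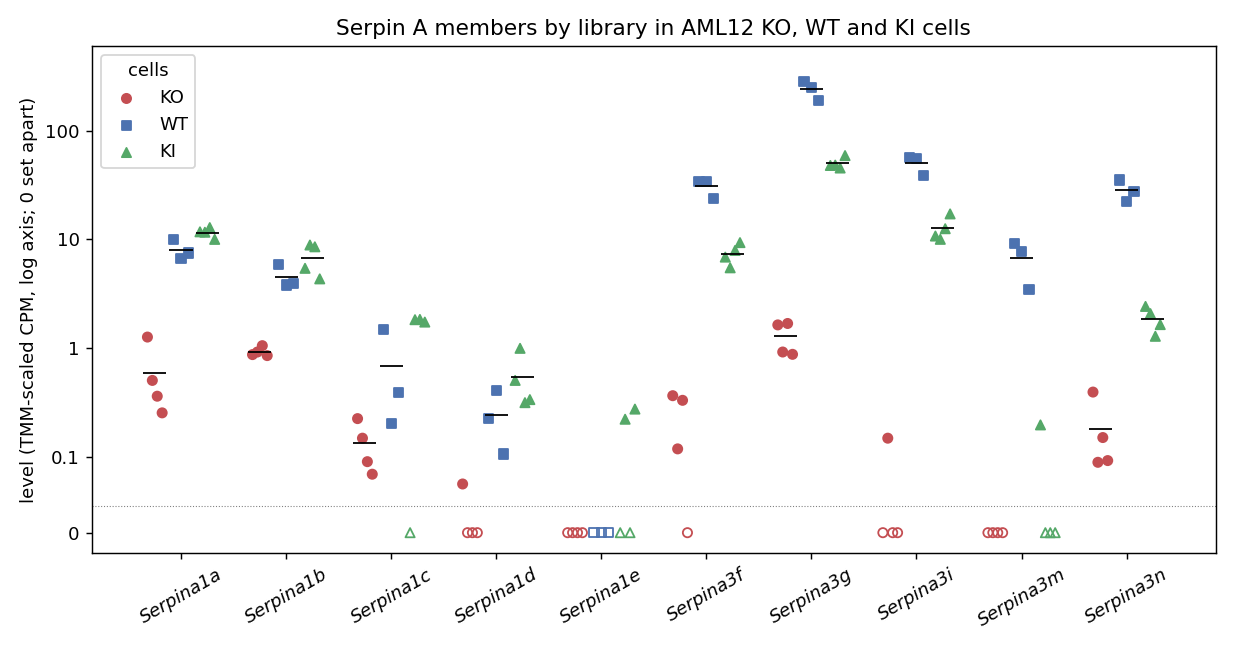
Level of each of the 10 members in each library, in TMM-scaled CPM on a log axis; circles are KO, squares WT and triangles KI libraries, open symbols under the dotted line are libraries with 0 counts, and black bars are means of groups without a 0. The KO libraries of *Serpina3g* lie between 0.874 and 1.68 CPM, far below the WT libraries, between 189 and 281, and the KI libraries lie between them, whereas for *Serpina1a* the KI libraries (9.97 to 12.8) lie at or above those of the WT cells (6.70 to 9.94).

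The first comparison, KO against WT, asks which transcripts change in cells without TXNDC5. All 7 members with enough counts to be tested were lower in the KO cells: *Serpina1a*, *Serpina1b* and all 5 *Serpina3* genes. Among all 13359 genes tested, 28.4% were called lower and 26.7% higher. The 3 members left out by the filter on low counts, *Serpina1c*, *Serpina1d* and *Serpina1e*, had at most 33 counts in any KO or WT library. A gene that passed the filter through its WT libraries alone could hardly be anything but lower, so the count describes the members and tests nothing. The fall was deepest in the *Serpina3* genes, as the plot of fold changes shows, with a summed level of 1.70 ± 0.683 CPM over the KO libraries (SD, n = 4) and 355 ± 67.9 over the WT libraries (SD, n = 3), a ratio of 209. For the summed *Serpina1* genes the levels were 1.66 ± 0.527 and 13.5 ± 3.48 CPM, a ratio of 8.11. In bulk RNA, fewer cells that express a gene and less RNA per cell cannot be told apart.

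*Serpina3g*, the inhibitor of intracellular cathepsins, had 58, 31, 56 and 38 counts in KO 5 to KO 8. Its level of 1.27 ± 0.438 CPM (SD, n = 4) in the KO cells gave a log2 fold change of -7.58 against WT (SE, the standard error, 0.26, edgeR adjusted p = 2.32e-08). The KO and WT libraries lie far apart, and it is the *Serpina3* gene that kept the most counts in the KO cells. *Serpina3n*, the acute-phase inhibitor, had 14, 3, 5 and 4 counts in the KO libraries against 787, 549 and 770 in the WT libraries, and its log2 fold change was -7.29 (SE 0.35, edgeR adjusted p = 1.33e-07). KO 5 was the highest of the 4 libraries, and without it the log2 fold change was -7.98. *Serpina3f* had 13, 4, 11 and 0 counts in the KO and 758, 848 and 671 in the WT libraries, with a log2 fold change of -7.29 (SE 0.46). The fitted folds of these 3 genes lay between 156 and 191.

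*Serpina3i* and *Serpina3m* were at or near the floor of detection in the KO cells. *Serpina3i* had 5 counts in KO 6 and 0 in the other 3 libraries, against 1272, 1362 and 1097 in the WT libraries, and was called lower (edgeR adjusted p = 9.11e-08). Its 5 summed counts correspond to 0.0342 CPM, with an exact 95% Poisson interval from 0.0111 to 0.0798, so the WT mean was between 629 and 4520 times as high, for counting error in the KO libraries only. Its fitted log2 fold change, -10.38, went to -13.63 without KO 6, since all other KO libraries were at 0. *Serpina3m*, with 205, 191 and 97 counts in the WT cells, was at 0 in each KO library and was called as well (edgeR adjusted p = 1.56e-05). Taking 3 counts per library as the floor, its KO level was at least 81.4-fold lower. *Serpina3m* shares sequence with *Serpina3k*, which overlaps it in the annotation and was at 0 in the KO libraries too.

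The antitrypsin genes fell less. *Serpina1a* had 45, 17, 12 and 11 counts in KO 5 to KO 8, against 223, 166 and 211 in the WT libraries, with a log2 fold change of -3.78 (SE 0.45, edgeR adjusted p = 4.96e-05). KO 5 stands above the other 3 libraries, and without it the log2 fold change was -4.45. *Serpina1b* was even among the KO libraries, with 31, 31, 35 and 37 counts, against 131, 94 and 111 in the WT libraries, and its log2 fold change was -2.31 (SE 0.29, edgeR adjusted p = 6.95e-05). The groups did not overlap for either gene, as for 55.1% of all genes tested in this comparison.

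The 2 table entries of each gene did not fall alike. Of *Serpina1b*, one entry kept 25 to 37 counts per KO library, against 46 to 85 in the WT libraries, while the other had 6, 0, 6 and 0, against 28 to 65. In the fit by entry, 9 of 9 tested entries of the members were lower in the KO cells. Of all 14125 entries tested, 27.4% were called lower and 25.7% higher. An entry that passed the filter through its WT libraries alone could hardly be anything but lower, so this count too tests nothing. Without WT 5-6, 8 of 9 were called, and 1 entry of *Serpina1a* was not (log2 fold change -1.71, edgeR adjusted p = 0.108). Reads of these close copies may be placed on either entry, and the 2 entries were not assigned to positions here.

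The members that did not pass the filter in this comparison are given by their counts. *Serpina1c* had 8, 5, 3 and 3 counts in the KO and 33, 5 and 11 in the WT libraries, and WT 7 overlaps with the KO libraries. With no filter it had a log2 fold change of -2.33 that was not called (edgeR adjusted p = 0.0704), and without WT 7 it passed the filter and was called lower (-2.76, edgeR adjusted p = 0.0229). *Serpina1d* had 2, 0, 0 and 0 counts in the KO and 5, 10 and 3 in the WT libraries, a difference near the floor. Its log2 fold change of -3.81 was not called with no filter (edgeR adjusted p = 0.104) but was called with all 11 libraries in 1 fit (edgeR adjusted p = 0.0102). *Serpina1e* had 0 counts in all 7 libraries, so no difference was detectable at this depth.

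**Figure D2:**
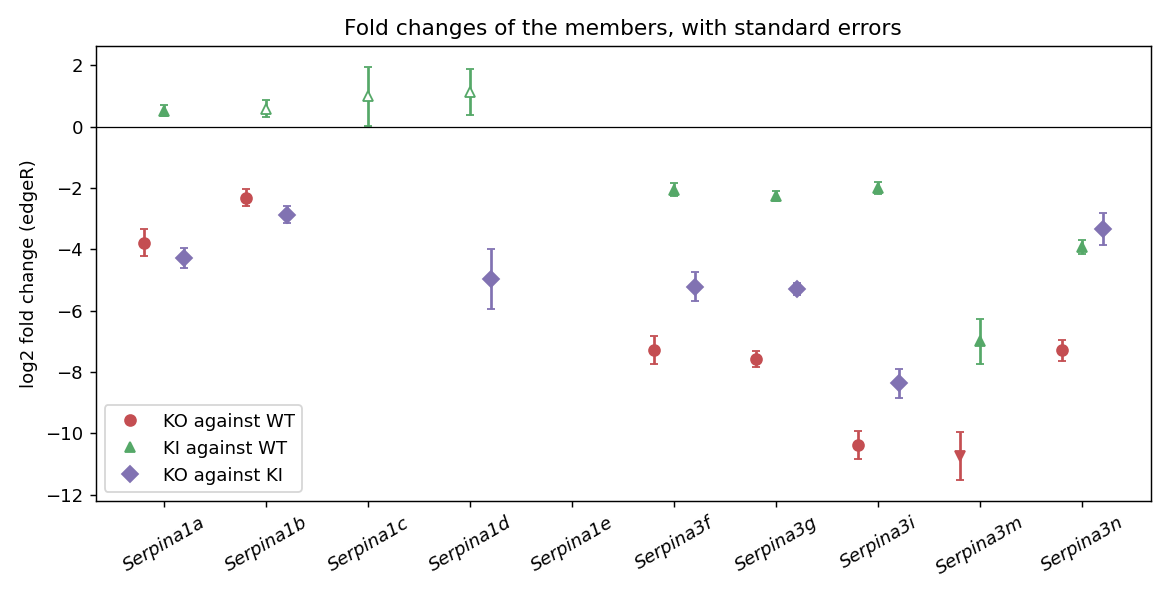
Log2 fold change of each tested member from edgeR, with its standard error, for KO against WT (circles), KI against WT (triangles) and KO against KI (diamonds); open symbols were not called at an adjusted p-value of 0.05, and the triangle pointing down marks *Serpina3m*, with 0 counts in all KO libraries. All 7 members tested in KO against WT lie below 0, while in KI against WT the *Serpina3* genes lie at -2.0 or lower and the *Serpina1* genes between 0.52 and 1.13.

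The second comparison set the libraries labelled KI against those of the WT cells. Here the subfamilies parted. All 5 *Serpina3* genes were lower in the KI libraries, while the *Serpina1* genes were not, and *Serpina1a* was called higher. Of the 9 members tested, 5 were called lower and 1 higher, against 21.0% of all 13534 genes called lower and 21.2% called higher. The summed *Serpina3* level was 71.8 ± 10.1 CPM in the KI libraries (SD, n = 4), so the WT level was 4.95 times as high, and the summed *Serpina1* level was 20.3 ± 3.67 CPM, which is 1.5 times the WT level.

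The *Serpina3* genes that lie side by side, *Serpina3f*, *Serpina3g* and *Serpina3i*, had similar values. *Serpina3g* had 1705, 1744, 1731 and 1935 counts in KI 5 to KI 8, a log2 fold change of -2.26 (SE 0.16, edgeR adjusted p = 8.78e-07). For *Serpina3f*, with 245, 198, 302 and 306 counts, it was -2.05 (SE 0.20), and for *Serpina3i*, with 382, 362, 479 and 562 counts, -2.0 (SE 0.20). The KI means of these genes were between 20.9% and 25.1% of their WT means. In each case the KI libraries lay above every KO and below every WT library. Of all genes tested, 44.6% did not overlap between KI and WT and 48.8% between KO and KI.

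The other pair of *Serpina3* genes was lower still. *Serpina3n* had 86, 75, 49 and 54 counts in the KI libraries, 6.56% of its WT mean in CPM, with a log2 fold change of -3.92 (SE 0.23, edgeR adjusted p = 2.07e-07). *Serpina3m* had 7 counts in KI 5 and 0 in the other 3 libraries, and was called (edgeR adjusted p = 1.66e-05). The gene passed the filter through its WT libraries alone, so its direction was fixed by the filter. Its 7 summed counts place the WT mean between 67.1 and 344 times as high, by an exact 95% Poisson interval for the KI libraries. The fitted log2 fold change of -7.0 rested on KI 5 and was -10.69 without it.

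*Serpina1a* had 419, 419, 489 and 328 counts in KI 5 to KI 8, a level of 11.5 ± 1.16 CPM (SD, n = 4). The log2 fold change was 0.52 (SE 0.18, edgeR adjusted p = 0.0367), and the KI libraries lay above those of the WT cells, although KI 8, at 9.97 CPM, was almost level with WT 5-6, at 9.94. This call is not secure. It was lost when WT 7, WT 8, KI 5, KI 6 or KI 7 was left out (log2 fold changes from 0.41 to 0.52, edgeR adjusted p-values from 0.0666 to 0.153) and with all 11 libraries in 1 fit (edgeR adjusted p = 0.181). *Serpina1b* had 193, 321, 326 and 142 counts, with a log2 fold change of 0.59 that was not called (SE 0.28, edgeR adjusted p = 0.111), and KI 5 and KI 8 overlapped with the WT libraries. Without KI 8 it was called (log2 fold change 0.76, edgeR adjusted p = 0.0413), as it was with library totals in place of TMM (log2 fold change 0.94, edgeR adjusted p = 0.0209).

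The 3 rarer antitrypsin genes had their highest counts in the libraries labelled KI. *Serpina1c* had 0, 66, 70 and 57 counts, so that KI 5 stood apart from the others, and its log2 fold change of 0.99 was not called (edgeR adjusted p = 0.432). *Serpina1d* had 18, 36, 12 and 11 counts and a log2 fold change of 1.13 that was not called either (edgeR adjusted p = 0.242). *Serpina1e* was seen in these libraries only, with 8 counts in KI 6, 9 in KI 8 and 0 in the other 2, and was too low to be tested. In the fit by entry, 5 of 11 tested entries were lower and 1, an entry of *Serpina1a*, was higher. Of all 14296 entries tested, 20% were called lower and 20% higher. Of the 100-base windows of *Serpina1e*, 14.8% also occur in another gene.

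The third comparison, KO against KI, shares its libraries with the first and second. All 7 members tested were lower in the KO cells, against 27.0% of all 13269 genes called lower and 27.0% called higher. Here too, a gene that passed the filter through its KI libraries alone could hardly be anything but lower. The count therefore describes the members and tests nothing. *Serpina1d* was tested here, with a log2 fold change of -4.97 (SE 0.98, edgeR adjusted p = 0.000561) that went to -7.29 without KO 5, the only KO library with counts. It passed the filter through its KI libraries alone, which fixed its direction. *Serpina1a* was lower by -4.28 (SE 0.33) and *Serpina1b* by -2.87 (SE 0.27) on the log2 scale, and *Serpina1a* went to -4.97 without KO 5. *Serpina3g* had a log2 fold change of -5.30 (SE 0.19, edgeR adjusted p = 1.74e-11), *Serpina3f* -5.21 (SE 0.47) and *Serpina3n* -3.34 (SE 0.53), which was -4.04 without KO 5. *Serpina3i*, with 5 counts over the KO libraries, was called lower as well (edgeR adjusted p = 1.58e-09), and the KI mean was between 158 and 1130 times as high by the exact 95% Poisson interval. *Serpina1c*, *Serpina1e* and *Serpina3m* did not pass the filter. *Serpina1c* was called lower with no filter (log2 fold change -3.32, edgeR adjusted p = 0.00576), with all 11 libraries in 1 fit, and without KI 5 or any 1 of the KO libraries. The fit by entry called 9 of 9 tested entries lower, against 25.8% of all 14032 entries called lower and 26% called higher.

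The balance of the subfamilies followed from these values and separated the 3 groups. The summed *Serpina3* level was 23.8, 33.1 and 23.7 times the summed *Serpina1* level in WT 5-6, WT 7 and WT 8. In the KI libraries the ratio was between 2.80 (KI 6) and 5.22 (KI 8), and in the KO libraries between 0.811 (KO 6) and 1.44 (KO 7). Within the *Serpina3* members, without the newly assembled entry described below, *Serpina3g* held 67.4% of the level in the WT, 69.6% in the KI and 75.2% in the KO libraries, the last from 42 to 85 *Serpina3* counts per library. The share of *Serpina3n* was 7.93% in the WT and 2.57% in the KI libraries.

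**Figure D3:**
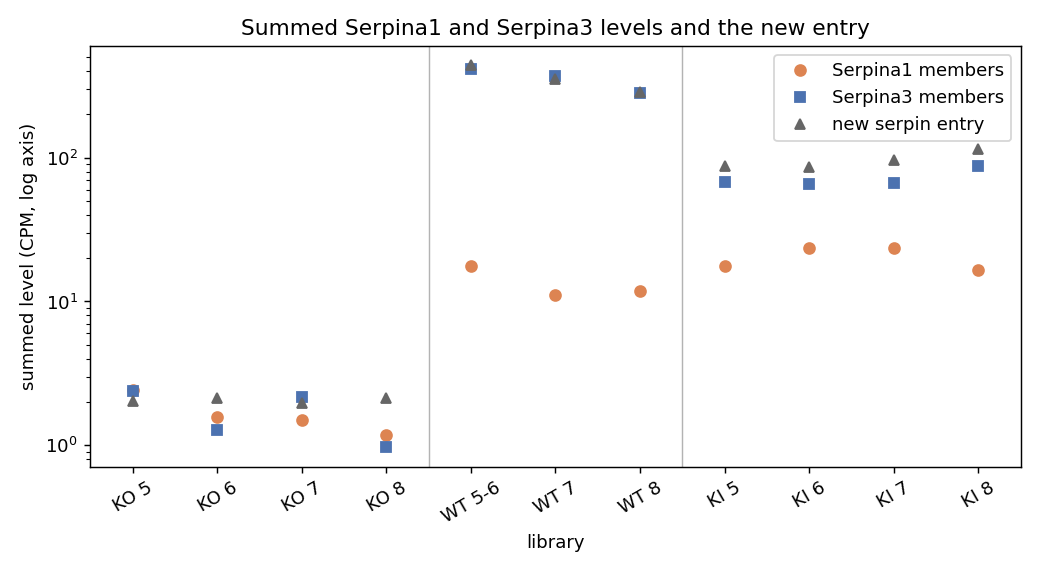
Summed level of the 5 *Serpina1* members (circles) and of the 5 *Serpina3* members (squares), and the level of a newly assembled serpin entry (triangles), in each library in TMM-scaled CPM on a log axis; vertical lines part the groups. The *Serpina3* sum lies between 282 and 416 CPM in the WT libraries, between 65.6 and 86.9 in the KI and between 0.966 and 2.38 in the KO libraries.

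One further entry belongs beside these genes. A newly assembled entry without a gene name, which the table's annotation columns match to *Serpina3i* in KEGG and to *Serpina3g* in Swiss-Prot, had more counts than any member: 9867, 8669 and 8078 in the WT libraries, 3128, 3125, 3688 and 3746 in the KI and 72, 72, 66 and 93 in the KO libraries. It was lower in the KO (log2 fold change -7.45, SE 0.19) and in the KI libraries (log2 fold change -1.90, SE 0.17) than in the WT cells, both called. Its fold changes lie near those of *Serpina3f* (-7.29 and -2.05) and *Serpina3g* (-7.58 and -2.26). The value in KI against WT is also near that of *Serpina3i* (-2.0). With the new entry, the summed *Serpina3* level in the WT cells rose from 355 to 714 CPM, and its ratio to the KO cells went from 209 to 190. The entry has no place in the annotation used here and was not counted as a member.

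The other 14 Serpina genes of the table were mostly silent in AML12 cells. *Serpina10*, *Serpina16*, *Serpina1f*, *Serpina3a* and *Serpina6* had 0 counts in all 11 libraries. Within the cluster, *Serpina11* had 41, 35 and 44 counts in the WT, 0 in all KO and 16, 33, 41 and 13 in the KI libraries. Its KO level was at least 19.3-fold lower than that of the WT cells, which was called (edgeR adjusted p = 0.000125), and it was not called between KI and WT (log2 fold change -1.17, edgeR adjusted p = 0.0718). *Serpina3k* had 182, 24 and 129 counts in the WT libraries, which vary widely, while the KO cells had none, at least 54.8-fold lower (edgeR adjusted p = 0.000208), or 33.4-fold without WT 5-6. *Serpina7*, which encodes thyroxine-binding globulin and lies on another chromosome, also had lower levels in both edited lines: 18.0 ± 6.34 CPM in the WT (SD, n = 3), 4.42 ± 1.58 in the KO and 3.77 ± 0.599 in the KI libraries (SD, n = 4). Its log2 fold changes against WT were -2.05 (edgeR adjusted p = 0.000255) and -2.26 (edgeR adjusted p = 2.17e-05). Of the 14 genes, these 3 were tested in KO against WT and all 3 were lower, against 28.4% of all genes. *Serpina11* and *Serpina3k* passed the filter through their WT libraries alone, so their direction was fixed by it.

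Serpins of other clades moved in both directions. Of 39 genes, 16 were tested in KO against WT, of which 9 were lower and 4 higher, with a median log2 fold change of -0.60 against -0.03 over all genes. Of all genes tested, 28.4% were called lower and 26.7% higher. *Serpine2*, which encodes a protease nexin, was higher in the KO cells, with a log2 fold change of 1.04 (edgeR adjusted p = 4.13e-05). In KI against WT, 5 of 17 tested genes were lower and 3 higher, against 21.0% and 21.2% of all genes.

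Genes beside the cluster were looked at next, within 500 kb of its outermost Serpina genes. Of 13 such genes in the table, 7 were tested in KO against WT, with 1 lower and 3 higher, and 6 in KI against WT, with 1 lower and 4 higher. The shares over all genes were 28.4% lower and 26.7% higher in KO against WT and 21.0% and 21.2% in KI against WT. In both comparisons *Clmn* passed the filter through its WT libraries alone, and *Ifi27l2b* through those of the edited line alone. *Ifi27l2a* passed through its KO libraries alone in KO against WT. The direction of these genes was thus fixed by the filter, and their calls test nothing. *Dicer1*, which encodes the ribonuclease that makes microRNAs, had 19.6, 20.1 and 21.0 CPM in the KO, WT and KI libraries and was not called in any comparison (edgeR adjusted p-values from 0.651 to 0.834). *Ddx24*, on the other side, was not called in KO against WT (log2 fold change 0.34, edgeR adjusted p = 0.116) and was higher in KI against WT (0.69, edgeR adjusted p = 0.00932). *Ifi27l2b*, an interferon-inducible gene, was higher in the KO cells, with 3.71 CPM against 0.0672 in the WT cells (edgeR adjusted p = 6.99e-05). *Clmn*, which encodes calmin, was the neighbour called lower: it had 23.2 ± 7.47 CPM in the WT cells (SD, n = 3), no counts in the KO cells, at least 279.8-fold lower, and a mean of 0.0544 CPM in the KI libraries. *Dicer1* lies between *Clmn* and the cluster, as the plot along the chromosome shows.

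**Figure D4:**
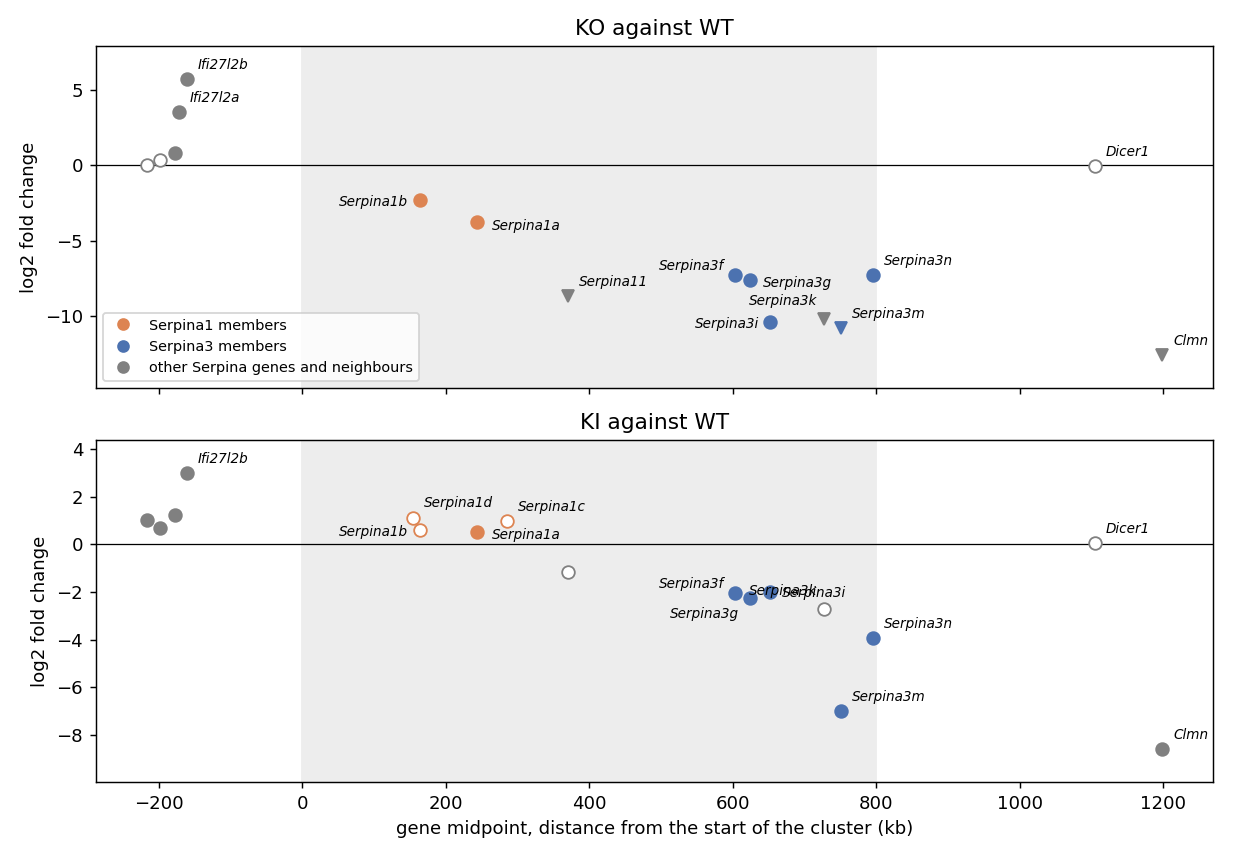
Log2 fold change of each tested member, other Serpina gene and neighbour against the distance of its midpoint from the start of the cluster in kb, for KO against WT (top) and KI against WT (bottom); the grey band is the cluster, open symbols were not called, and triangles mark genes with 0 counts in all KO libraries, whose fitted values are no bound. *Dicer1*, at 1105.1 kb, lies at -0.05 and 0.06, between the *Serpina3* members, at -2.0 or lower in both panels, and *Clmn* at 1199.3 kb.

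The promoters of the members differ in the short motifs they hold, and stretches of 130 bases before the start site are shown for the 3 genes with a STAT site match. They come from RefSeq promoters on GRCm38.p6, 250 bases before to 50 after each start, in which 9 of the 10 members, all but *Serpina3m*, have an entry. Capitals mark matches on either strand to TTCNNNGAA, a STAT site, or to TTGCNNAA, a C/EBP site. STAT and C/EBP factors drive acute-phase genes in liver.
Serpina3g, chr12:104236017-104236146, plus strand: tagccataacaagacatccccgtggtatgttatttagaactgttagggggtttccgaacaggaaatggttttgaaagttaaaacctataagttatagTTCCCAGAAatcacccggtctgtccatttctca
Serpina3i, chr12:104262992-104263121, plus strand: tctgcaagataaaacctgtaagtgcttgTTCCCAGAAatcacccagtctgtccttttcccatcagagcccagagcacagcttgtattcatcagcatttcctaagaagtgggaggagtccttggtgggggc
Serpina3f, chr12:104214414-104214543, plus strand: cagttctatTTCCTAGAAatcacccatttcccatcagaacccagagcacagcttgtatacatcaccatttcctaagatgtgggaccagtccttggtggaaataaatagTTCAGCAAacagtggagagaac
TTCNNNGAA was found in *Serpina3f*, *Serpina3g* and *Serpina3i*, in none of the other promoters of the members, and in 8.3% of all 32851 promoters. TTGCNNAA was found in *Serpina1a*, *Serpina1b*, *Serpina1d*, *Serpina1e* and *Serpina3f* and in 10.8% of all promoters. The interferon-response core AANNGAAA, found in 23.9% of all promoters, had no match in the windows of the members. A match is a description of the letters only.

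Factors that act on such promoters in liver, and regulators of the acute phase, were described as a list of 19 genes, all tested. In KO against WT, 7 were lower and 7 higher, with a median log2 fold change of 0.29 against -0.03 over all genes, and in KI against WT 4 were lower and 3 higher. Of all genes tested, 28.4% were called lower and 26.7% higher in KO against WT, and 21.0% and 21.2% in KI against WT. *Hnf4a*, a master factor of hepatocytes, was higher in the KO cells, with 275 ± 12.4 CPM (SD, n = 4) and 107 ± 26.7 over the WT libraries (SD, n = 3) and a log2 fold change of 1.35 (edgeR adjusted p = 6.30e-05). *Cebpa*, which encodes a C/EBP factor, was higher by 1.70 on the log2 scale (edgeR adjusted p = 7.44e-06). In KI against WT neither gene was called, with log2 fold changes of 0.31 and -0.24.

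Others of the list were lower in the KO cells. *Il1r1*, the receptor through which interleukin-1 acts, had 0.805 ± 0.185 CPM in the KO, 13.9 ± 2.32 in the WT and 18.9 ± 4.10 in the KI libraries, with log2 fold changes of -4.11 against WT (edgeR adjusted p = 3.76e-07) and -4.53 against KI. *Stat3*, which carries the interleukin-6 signal, was lower by -0.72 in KO against WT (edgeR adjusted p = 0.00648) and had a log2 fold change of -0.52 in KI against WT that was not called (edgeR adjusted p = 0.0506). *Foxa3* and *Nr5a2*, liver factors, were lower in both comparisons against WT, *Foxa3* by -2.0 and -1.23 and *Nr5a2* by -2.64 and -3.45 on the log2 scale (edgeR adjusted p = 1.09e-05, 0.000525, 4.72e-06 and 3.29e-06). *Nfkb1* was higher in both, by 0.61 and 1.32 (edgeR adjusted p = 0.00315 and 2.24e-05).

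Genes of the path by which antitrypsin is folded, exported and degraded rose more often than they fell in the KO cells. Of 15 genes, 10 were higher and 1 lower in KO against WT, with a median log2 fold change of 0.61 against -0.03 over all genes, of which 26.7% were called higher and 28.4% lower. In KI against WT, 1 was higher and 3 lower, against 21.2% and 21.0% of all genes. *Calr*, the lectin chaperone calreticulin, was higher by 1.06 (edgeR adjusted p = 0.000242) and *Surf4*, a cargo receptor, by 0.93 (edgeR adjusted p = 0.000118) in the KO cells. *Lman1*, the cargo receptor of antitrypsin, had 117 ± 3.48 CPM in the KO and 120 ± 6.99 in the WT cells and was not called (edgeR adjusted p = 0.674). The gene called lower was *Erlec1*, a lectin of ER-associated degradation, with a log2 fold change of -1.54 in KO against WT (edgeR adjusted p = 1.35e-06) and -0.81 in KI against WT (edgeR adjusted p = 0.000205).

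Most proteases that these serpins inhibit in the body were near or under the floor of detection. Of 14 listed, 5 were tested, and *Elane*, *Ctsg*, *Gzmb* and *Cma1*, which encode proteases of neutrophils, lymphocytes and mast cells, had 0 counts in all libraries. *Prtn3*, also on the list, had a mean of 2.67 CPM in the WT and 0.12 in the KO libraries, the latter near the floor. It was called lower in the KO cells (log2 fold change -4.34, edgeR adjusted p = 0.00165). *Prtn3* passed the filter through its WT libraries alone, so it could hardly be anything but lower. The cathepsins that *Serpina3g* is known to inhibit were abundant. *Ctsb* had 344 ± 3.77 CPM in the KO, 607 ± 89.2 in the WT and 415 ± 56.4 in the KI libraries, and was lower than in the WT cells by -0.84 (edgeR adjusted p = 0.000298) and -0.55 (edgeR adjusted p = 0.0159). *Ctsl* was lower in the KO cells (log2 fold change -0.52, edgeR adjusted p = 0.00439) and not called in KI against WT (log2 fold change 0.36, edgeR adjusted p = 0.0727). Of the 5 receptors and helpers that take up serpin-protease complexes, 4 were tested. *Lrp1* was higher in the KO cells (162 ± 43.7 against 47.3 ± 19.6 CPM, edgeR adjusted p = 0.000531) and *Vldlr* lower (87.5 ± 10.8 against 236 ± 14.3 CPM, edgeR adjusted p = 6.72e-06).

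Markers of liver cell types were checked beside these results. The 12 hepatocyte markers were all detected, and their summed level was between 6450 and 7560 CPM in the KO, 3890 and 6080 in the WT and 2980 and 3770 in the KI libraries. Of the 12, 9 were higher and 3 lower in KO against WT, against 26.7% and 28.4% of all genes tested. The lower ones, with the same direction as the called serpin A genes, were *Trf* (log2 fold change -1.16, edgeR adjusted p = 0.000843), *Ttr* (-0.93, edgeR adjusted p = 0.00139) and *Fgb* (-1.04, edgeR adjusted p = 0.00583). *Alb*, the main plasma protein of hepatocytes, had 4110 ± 524 CPM in the KO and 513 ± 198 in the WT cells (log2 fold change 2.99, edgeR adjusted p = 5.68e-06), a direction opposite to that of the called serpin A genes. The summed level held between 3590 and 4770 CPM of *Alb* in the KO and between 373 and 739 in the WT libraries. The higher sum in the KO libraries therefore rests on *Alb* and is no measure of the markers as a set. By gene, the median log2 fold change of the 12 markers in KO against WT was 1.23, against -0.03 over all genes. In KI against WT, 4 of 11 tested hepatocyte markers were lower, 2 were higher and 5 were not called, against 21.0% of all genes called lower and 21.2% called higher. *Alb* was among the lower (log2 fold change -1.06, edgeR adjusted p = 0.00437), and *Apob* (1.21, edgeR adjusted p = 9.88e-05) and *Afp* (2.02, edgeR adjusted p = 0.00111) were higher. The 5 cholangiocyte markers summed to between 1340 and 1500 CPM in the KO, 2970 and 4380 in the WT and 2600 and 3080 in the KI libraries, with *Epcam* at 0 counts throughout. Of the 4 tested in KO against WT, 3 were lower, among them *Krt7* (log2 fold change -3.40, edgeR adjusted p = 2.32e-08), and 1, *Krt19*, was higher (log2 fold change 0.49, edgeR adjusted p = 0.0117). The 5 macrophage markers summed to between 1.32 and 2.21 CPM in the KO, 6.73 and 9.20 in the WT and 2.60 and 5.66 in the KI libraries, with *Adgre1* at 0 counts in all libraries. The 7 stellate cell and fibroblast markers summed to at most 1.15 CPM and the 4 endothelial markers to at most 0.425 CPM in any library. The part of these differences in the serpin values was not tested.

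Genes outside the Serpina family with the most similar profile were named by the smallest root mean square difference of centred log2 levels over the 11 libraries, among 13843 genes. For the summed *Serpina1* level they were *Tec* (0.33), *Arhgef6* (0.34) and *Car2* (0.35). *Car2*, which encodes a carbonic anhydrase, had 1.70 ± 0.299 CPM in the KO, 17.5 ± 1.68 in the WT and 21.8 ± 4.49 in the KI libraries. For the summed *Serpina3* level they were *Bex1* (0.42), *Enah* (0.44) and *Bche* (0.48), and the newly assembled serpin entry had 0.37. *Bche*, which encodes butyrylcholinesterase, a plasma enzyme made in liver, had 0.0586 ± 0.0484 CPM in the KO, 32.0 ± 6.10 in the WT and 10.8 ± 1.90 in the KI libraries. The 11 libraries fall into 3 groups, so the likeness is in effect one over group levels.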

How the data were processed

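Polyadenylated RNA of AML12 cells was sequenced in 11 libraries (4 KO, 3 WT, 4 KI). The authors deposited counts per gene, without normalization. The submitters' processing notes name HISAT2, TopHat2, Bowtie2 and StringTie without roles, and the build and the counting step are not given in the sources used here. Of the table, 26462 lines were used, 10 broken lines were left out, and 11 per-sample FPKM columns without their decimal points were not used, nor were the columns of the authors' own comparisons (fold changes and p-values). Entries of 1131 gene names were summed. Total counts were between 29840366 and 38422243 per library, and 3 counts served as the floor of detection. Intervals and floors cover counting error only.

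Counts were filtered (filterByExpr), scaled by TMM and tested with edgeR 4.0.16 (glmQLFit, robust, and glmQLFTest, prior count 0.125) in R 4.3.3, with the libraries of the 2 groups compared and no block. An adjusted p-value (Benjamini-Hochberg over all genes tested) under 0.05 was a call. Standard errors were derived from the fold change and the F statistic. CPM levels use one TMM scale over all 11 libraries. Scaling by library totals instead shifted the median log2 fold change over genes tested from -0.03 to 0.38 (KO against WT) and from -0.02 to 0.31 (KI against WT). Fold changes are thus measured against most other genes. Alternatives were DESeq2 1.42.0, limma 3.58.1 on log2(CPM + 1), other scalings, no filter, all libraries in 1 fit, a replicate block, single entries and leaving out each library. The test was tested on simulated data. The members and lists were chosen with earlier results of these data known. Named were all members, *Txndc5*, the called genes of each list with the largest changes and a mean log2 CPM no lower than 2, those a sentence needed, and the 3 genes nearest in profile (log2 of CPM + 0.1). Nothing in the sources says that replicates are separate cultures, so p-values measure the spread between these libraries. Positions and transcripts are from GENCODE M21 and promoters from RefSeq, on GRCm38. Some results are not reported here. Figures were drawn with matplotlib 3.10.9 in Python 3.11.15.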

Additional observations from a re-analysis of the deposited data

Results flagged for a closer look

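In 4 of 18 groups of 4 libraries, 1 library lay far from the others by Dixon's ratio, the share of the group's range that separates it from its nearest neighbour. For *Serpina1c* the ratio was 0.947 in the KI libraries, in which KI 5 had 0 counts and the others between 57 and 70. For *Serpina3m* it was 1 in the KI libraries (KI 5 with 7 counts, the others 0), for *Serpina3i* 1 in the KO libraries (KO 6 with 5 counts, the others 0) and for *Serpina1d* 1 in the KO libraries (KO 5 with 2 counts, the others 0). In the last 3 groups the other libraries are tied at 0, so that the ratio is 1 by construction, and they lie near the floor of detection. Chance gives about 1 in 20 for values without ties, a rate that cannot be set against these groups.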

How the results depend on the processing

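All 7 members called lower in KO against WT, the 5 called lower in KI against WT and the 7 called lower in KO against KI were called in the same direction under every alternative that was run, and no member reversed. Members outside the filter became called under some: 8 were called lower in KO against WT with all 11 libraries in 1 fit (*Serpina1d* added) and without WT 7 (*Serpina1c* added), and 8 in KO against KI with no filter, in 1 fit, and without KI 5 or any 1 KO library (*Serpina1c* added). Of the table entries, 8 to 10 were called lower in KO against WT on leaving out 1 library, with 8 without WT 5-6. In KI against WT the number of members called higher, 1, was 2 with library totals in place of TMM, 0 with all 11 libraries in 1 fit, and from 0 to 2 on leaving out 1 library at a time. The number of table entries called higher, 1, was 0 to 1 on leaving out 1 library. The cause was not tested. Same-numbered libraries did not deviate together as a rule. Correlations of their deviations lay between -0.38 and 0.50, the highest for replicate 8 in KO against WT. The numbers were not used as pairs. With a replicate block, no member was called higher in KI against WT (0, with *Serpina1a* at 0.66, edgeR adjusted p = 0.285), and the other calls of members held. On the scale of limma's log2(CPM + 1), the fold changes of low members are smaller, by construction: *Serpina3m* had -2.85 in KO against WT. The floor of 3 counts corresponds to between 0.069 and 0.134 CPM in a library, and lower levels cannot be told from 0.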
